A study of Mus musculus with 6 samples.

Results

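The serum amyloid A genes Saa1, Saa2, Saa3 and Saa4, the orosomucoid genes Orm1 and Orm2, and Lcn2, Hp, Hpx and Serpina3n were followed in mouse liver after oral dosing with polystyrene microplastics (PS-MP, small particles of a packaging plastic). The 10 genes were taken by symbol from the 55536 genes in each file, as inducible acute phase genes of hepatocytes, through the mouse annotation GENCODE M21. All 10 were found, and all 10 passed the filter on low values. The study compared 3 liver libraries from male C57BL/6 mice dosed with PS-MP at 0.4 mg per day with 3 liver libraries from male C57BL/6 mice dosed with water. Both groups were 6 weeks old at the start and were dosed 2 times a week for 8 weeks. C57BL/6 is an inbred strain, and no label names a genotype or any agent that the groups share beside oral dosing. Whether each library is a different mouse is not stated, and the spread behind every p-value is that between libraries, which may be technical.

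The acute phase response is the change in plasma proteins that the liver makes when tissue is injured or infected. Macrophages release interleukin 1, interleukin 6 and tumour necrosis factor, hepatocytes sense them through their receptors, and the factors STAT3, NF-kB and C/EBP then raise transcription of genes such as Saa1, Saa2 and Hp. Serum amyloid A proteins ride on high-density lipoprotein, orosomucoids carry basic and neutral drugs in plasma, haptoglobin (Hp) binds free haemoglobin, hemopexin (Hpx) binds free haem, lipocalin 2 (Lcn2) withholds iron from bacteria by binding their siderophores, and Serpina3n inhibits serine proteases.

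Recovered read totals ran from 13082210 to 16948343 per library. The hepatocyte gene Alb, for serum albumin, was at 24624 to 33953 FPKM (fragments scaled for exon length and library size). PS-MP replicate 3 stood apart. The 10 brain markers listed gave 190 to 210 reads among the water libraries, then 405 and 341 reads in PS-MP replicates 1 and 2, and 3215 reads in PS-MP replicate 3. The 8 adipocyte markers summed to 37.9, 1.93 and 12.9 FPKM in water replicates 1, 2 and 3 and to 1.55, 1.58 and 16.4 FPKM in PS-MP replicates 1, 2 and 3. Several values are therefore also given without PS-MP replicate 3 or water replicate 1.

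The serum amyloid A genes lie together on chromosome 7 of GRCm38. Saa3 spans 46711998 to 46715700, Saa4 46727998 to 46732603 and Saa1 46740497 to 46742980, all on the minus strand, and Saa2 spans 46751790 to 46754313 on the plus strand. Saa1 and Saa2 thus point away from each other across 8809 bases. Their promoters are shown because Saa1 and Saa2 had the same highest and lowest libraries, and that of Saa3, the member with the smallest p, is shown for contrast. The windows run from 250 bases before the RefSeq start site to 50 after it, on GRCm38.p6, and read 5′ to 3′ along the gene. They cover chr7:46742931-46743230 (minus strand) for Saa1, chr7:46751583-46751882 (plus strand) for Saa2 and chr7:46715627-46715926 (minus strand) for Saa3. Capitals mark a match to the letters TTGCNNAA, a form of the C/EBP motif, on either strand.
Saa1: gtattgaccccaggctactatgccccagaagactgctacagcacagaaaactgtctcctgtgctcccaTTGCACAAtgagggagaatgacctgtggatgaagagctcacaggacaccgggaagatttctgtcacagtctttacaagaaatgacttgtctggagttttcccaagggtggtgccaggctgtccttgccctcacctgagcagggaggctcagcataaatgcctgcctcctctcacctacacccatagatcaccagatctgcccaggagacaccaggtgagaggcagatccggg
Saa2: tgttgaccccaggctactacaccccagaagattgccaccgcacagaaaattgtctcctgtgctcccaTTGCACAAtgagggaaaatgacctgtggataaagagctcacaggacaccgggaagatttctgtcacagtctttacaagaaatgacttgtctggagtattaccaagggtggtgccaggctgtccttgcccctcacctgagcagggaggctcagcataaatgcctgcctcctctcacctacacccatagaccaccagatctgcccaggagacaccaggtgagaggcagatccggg
Saa3: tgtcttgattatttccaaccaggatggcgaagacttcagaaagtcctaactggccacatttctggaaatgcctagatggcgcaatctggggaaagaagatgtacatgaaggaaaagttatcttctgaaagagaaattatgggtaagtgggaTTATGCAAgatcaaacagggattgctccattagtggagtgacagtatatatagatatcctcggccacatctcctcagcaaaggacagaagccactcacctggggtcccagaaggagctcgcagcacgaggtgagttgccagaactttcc
The Saa1 and Saa2 windows were 95.3% identical over their alignment, with 12 mismatches and 2 gap bases, and the match TTGCACAA stands in both. The other pairs of serum amyloid A windows were 48.4% to 54.2% identical.

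The orosomucoid genes lie on chromosome 4, all on the plus strand, with Orm1 at 63344560 to 63348163, Orm3 at 63356162 to 63359511 and Orm2 at 63362449 to 63365878. Orm3 is not among the 10 genes and is described as the neighbouring copy. The windows of Orm2 (chr4:63362199-63362498) and Orm3 (chr4:63355908-63356207) are shown, marked in the same way, because these copies had their extreme values in PS-MP replicate 3 at opposite ends.
Orm2: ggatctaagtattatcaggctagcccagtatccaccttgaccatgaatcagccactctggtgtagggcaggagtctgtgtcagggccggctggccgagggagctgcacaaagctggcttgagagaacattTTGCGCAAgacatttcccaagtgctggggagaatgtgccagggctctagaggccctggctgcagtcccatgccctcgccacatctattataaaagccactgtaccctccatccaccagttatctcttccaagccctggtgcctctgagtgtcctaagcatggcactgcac
Orm3: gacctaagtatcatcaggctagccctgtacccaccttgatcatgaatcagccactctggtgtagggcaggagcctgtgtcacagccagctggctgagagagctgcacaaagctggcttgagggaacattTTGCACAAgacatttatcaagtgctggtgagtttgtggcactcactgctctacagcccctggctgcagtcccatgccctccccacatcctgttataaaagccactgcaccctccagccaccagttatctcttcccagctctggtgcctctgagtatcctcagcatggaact
They were 86.6% identical, and the C/EBP letters begin 120 bases before the start site in Orm2 (TTGCGCAA) and 121 before it in Orm3 (TTGCACAA). RefSeq windows matched 8 of the 10 genes. Of these 8, the C/EBP letters occur in Saa1, Saa2, Saa3, Saa4, Orm2, Lcn2 and Hpx (7 genes), and they occur in 10.8% of 32851 promoter windows of the same length. The NF-kB letters (GGG, any 4 bases, TCC) were in Lcn2 and Serpina3n, against 19.2% of all windows, and the STAT letters TTCNNNGAA were in 0 of the 8, against 8.30%. Both strands were searched, and these counts describe letters in these windows and nothing about binding.

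Near-identical copies limit what the values can separate. Of the 50-base windows in Saa1 transcripts, 31.1% also occur in Saa2 transcripts, and 30% of those of Saa2 occur in Saa1. For Orm1, 20.4% of windows occur in Orm2. The sources used here give neither read length nor how reads matching several genes were counted, and the values of Saa1 against Saa2, and of Orm2 against the far more abundant Orm1, are uncertain. Lcn2, Hp and Hpx shared no such window with another gene, and Saa3, Saa4 and Serpina3n shared 4.15%, 1.27% and 6.9%. The genes sharing most with Saa3 were not serum amyloid A copies but Gm37376 and Malat1 (1.88% of its windows each) and Xrcc2 (1.65%). Their part in the Saa3 reads was not tested. The exons of the 10 genes overlap those of no other annotated gene.

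Levels per length differed widely among the 10 genes. Hp and Hpx were the most abundant, with means over the 6 libraries of 1522 ± 121 and 1367 ± 65.7 FPKM (SD, n = 6). Orm1 followed at 531 ± 40.6, Serpina3n at 191 ± 16.9 and Saa4 at 91.9 ± 20.2 FPKM (SD, n = 6). Orm2 was at 11.3 ± 2.94 and Saa1 at 6.84 ± 4.27 FPKM, and Saa2, Lcn2 and Saa3 were lowest at 1.5 ± 0.69, 1.15 ± 0.42 and 0.77 ± 0.28 FPKM (SD, n = 6). The ranges of Hp and Hpx overlapped, as did those of Orm2 and Saa1, of Saa2 and Lcn2, and of Lcn2 and Saa3. The first of each pair was higher in 5, 5, 4 and 5 of 6 libraries, so these orders were not uniform. Every other neighbouring pair was in the same order in 6 of 6 libraries with no overlap. Summed over the 10 genes, reads made up 0.510% to 0.583% of each library total, and Hp and Hpx made up 75.8% to 79.8% of the summed FPKM of the 10 genes. Thus Hp and Hpx dominated the summed FPKM. The genes known for the steepest induction (Saa1, Saa2, Saa3 and Lcn2) were near the low end of the 10 in both groups.

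**Figure D1:**
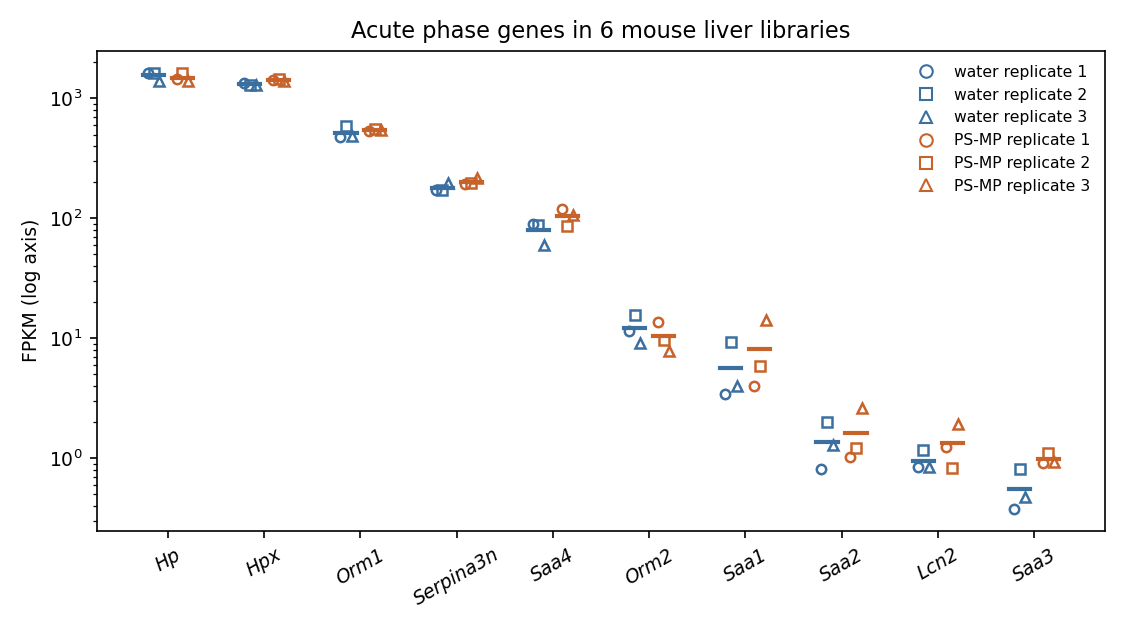
FPKM of the 10 genes (log axis) in each library, ordered by mean level; open symbols are single libraries (blue water, orange PS-MP) and short lines are group means of 3 libraries. Hp and Hpx sit at the top and Saa3, Lcn2 and Saa2 near 1 FPKM in both groups.

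The comparison asked whether the 10 genes differed between PS-MP and water. None of the 10 passed limma-trend after Benjamini-Hochberg adjustment over 13299 genes (smallest adjusted p = 0.247, for Saa3), whereas 0.489% of all genes tested did (65 genes; 0.241% as higher in PS-MP and 0.248% as lower). At an unadjusted p under 0.05 there was 1 gene of 10 (Saa3), against 13.1% of all genes tested, and limma-voom on the recovered reads also called 0 of 10, against 1.0% of all genes tested (133 genes), with 2 at an unadjusted p under 0.05, against 13.3%. Fold changes, on the scale of FPKM + 0.5, were positive for 8 of the 10 genes, against 53.7% of all genes tested. Their median log2 fold change was 0.17, against 0.01 over all genes tested. Without PS-MP replicate 3 the members' median was 0.08, and with water replicate 1 left out as well it was 0.03. The 3 PS-MP values all lay above the 3 water values for Saa3 and Hpx (2 of 10), against 11.1% of all genes tested, and all lay below them for 0 of 10, against 8.12%. These are bulk samples, in which fewer cells of a type and less RNA per cell cannot be told apart.

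**Figure D2:**
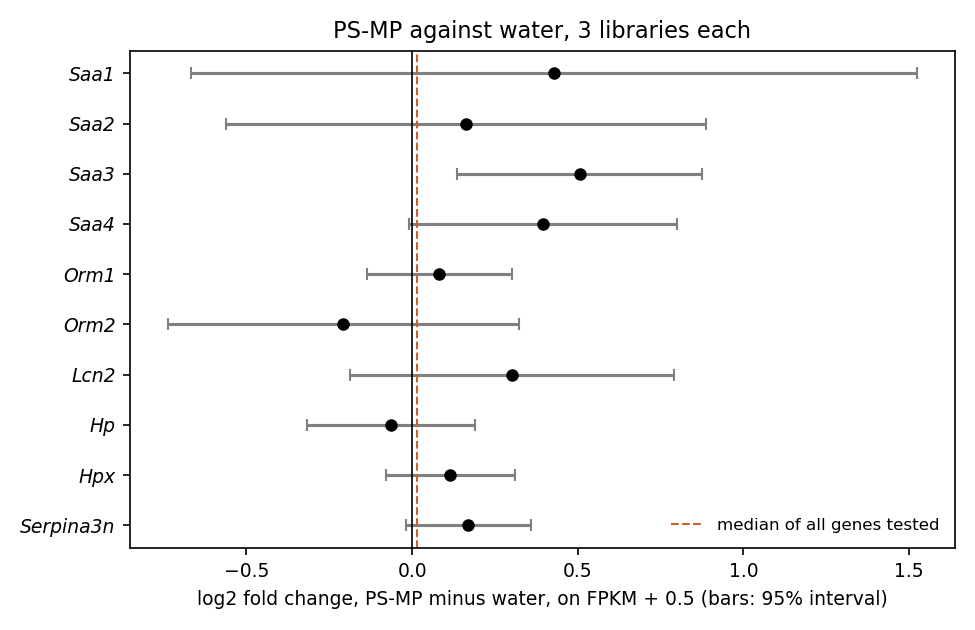
Log2 fold change of each gene, PS-MP minus water, from limma-trend on log2(FPKM + 0.5), with 95% intervals from 3 libraries per group; the dashed line is the median of all genes tested. The interval of Saa3 lies above 0 before adjustment, and those of the other 9 genes include 0, with Saa1 the widest.

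Saa1 encodes a major acute phase serum amyloid A of hepatocytes. Its values were 3.43, 9.36 and 4.03 FPKM in water replicates 1, 2 and 3 and 4.01, 5.90 and 14.3 FPKM in PS-MP replicates 1, 2 and 3 (129 to 530 reads). A single library was high in each group, water replicate 2 and PS-MP replicate 3, and the other 4 libraries lay between 3.43 and 5.90 FPKM, so the groups overlapped. The group means were 5.61 ± 3.26 and 8.08 ± 5.5 FPKM (SD, n = 3), with a log2 fold change of 0.43 (standard error 0.47, 95% interval -0.67 to 1.53, adjusted p = 0.746 by limma). Within water the highest value was 2.73 times the lowest, and within PS-MP 3.58 times, more than the counting intervals of 2.86 to 4.07 FPKM for water replicate 1 and 8.46 to 10.3 FPKM for water replicate 2 allow. The log2 fold change was 0.17 without water replicate 1 and -0.06 without PS-MP replicate 3, and with both left out it was -0.31.

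Saa2, the paired hepatocyte isoform, was at a lower level with the same highest, second and lowest libraries. Its values were 0.81, 2.02 and 1.29 FPKM in water replicates 1, 2 and 3 and 1.03, 1.2 and 2.64 FPKM in PS-MP replicates 1, 2 and 3 (31 to 99 reads). PS-MP replicate 3 was highest, water replicate 2 second and water replicate 1 lowest, and the groups overlapped, while water replicate 3 was above PS-MP replicate 2, unlike for Saa1. The log2 fold change was 0.16 (standard error 0.31, 95% interval -0.56 to 0.89, adjusted p = 0.863 by limma). It was -0.07 without water replicate 1 and -0.15 without PS-MP replicate 3. The Saa1 to Saa2 ratio stayed between 3.14 and 5.44 over the 6 libraries, although shared sequence could tie the pair together in part. PS-MP replicate 3 and water replicate 2, the high libraries of Saa1 and Saa2, had 3215 and 199 brain marker reads and 16.4 and 1.93 FPKM of adipocyte markers. The part of these transcripts in the Saa1 and Saa2 values was not tested.

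Saa3, which macrophages and fat cells make as well as liver, was the gene nearest to a call. Its values were 0.38, 0.82 and 0.48 FPKM in water replicates 1, 2 and 3 and 0.91, 1.11 and 0.93 FPKM in PS-MP replicates 1, 2 and 3. All 3 PS-MP libraries were above all 3 water libraries, with a narrow gap between water replicate 2 and PS-MP replicate 1. These values stand on 15, 36 and 18 reads against 31, 46 and 36 reads, and the counting intervals of those neighbours overlap (0.57 to 1.13 against 0.62 to 1.29 FPKM). The ratio of mean FPKM was 1.76, and the log2 fold change on FPKM + 0.5, which understates a gene at this level, was 0.51 (standard error 0.16, 95% interval 0.14 to 0.88, unadjusted p = 0.0135, adjusted p = 0.247 by limma). The adjusted p ran from 0.118 to 0.606 over the alternatives. Without water replicate 1, its lowest library, the log2 fold change of Saa3 was 0.38 and the unadjusted p was 0.0508 by limma. Without PS-MP replicate 3 it was 0.53. Of the 12 Kupffer cell and macrophage markers, 0 passed the limma-trend test and 1 had an unadjusted p under 0.05 (Cd5l, chosen after its values were seen). Of all genes tested, 0.489% and 13.1% did so. The markers summed to 170.5 to 188.1 FPKM in water and 161.3 to 209.4 FPKM in PS-MP. Their part in the Saa3 difference was not tested.

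Saa4 encodes the constitutive serum amyloid A that is a normal part of high-density lipoprotein. Its values were 90.2, 88.1 and 60.5 FPKM in water replicates 1, 2 and 3 and 119, 85.8 and 108 FPKM in PS-MP replicates 1, 2 and 3. PS-MP replicate 2 lay within the water range, so the groups overlapped, while water replicate 3 was lowest. The log2 fold change was 0.40 (standard error 0.17, 95% interval -0.01 to 0.80, adjusted p = 0.39 by limma). It was 0.21 without water replicate 3, the library with the lowest value. With 1840 to 3360 reads per library, counting error is small beside the spread between libraries. The serum amyloid A genes thus did not share a library order, since PS-MP replicate 1 was highest for Saa4 and next to lowest for Saa1 and Saa2.

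**Figure D3:**
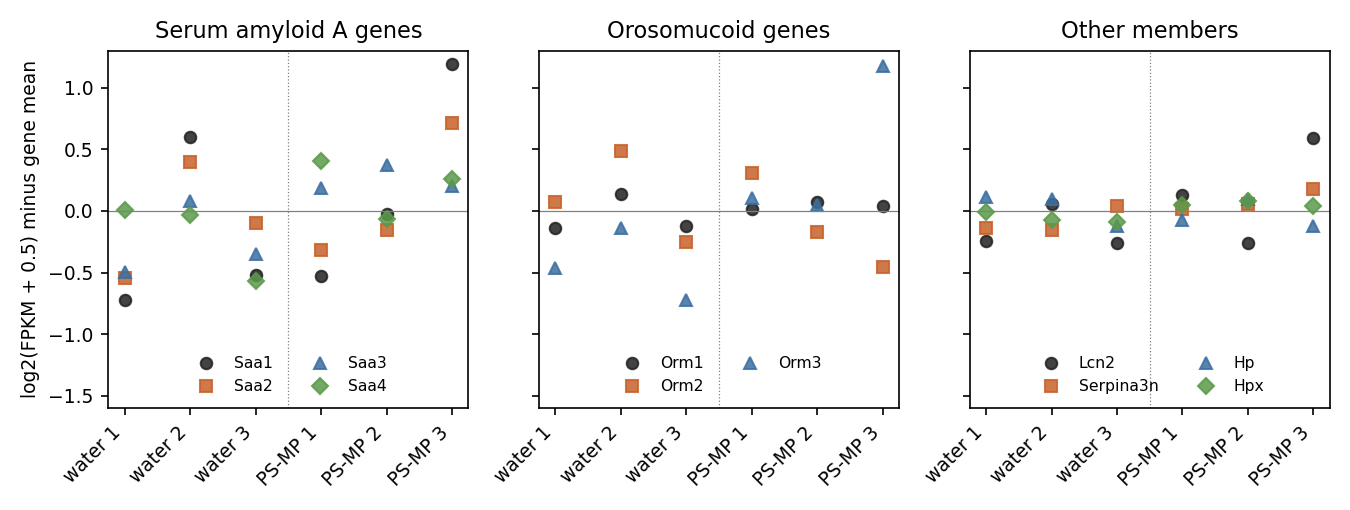
Log2(FPKM + 0.5) of each gene minus its own mean over the 6 libraries, by library, for the serum amyloid A genes (left), the orosomucoid genes with the neighbouring copy Orm3 (middle) and the other genes (right); the dotted line separates water from PS-MP. Saa1 and Saa2 peak together in water 2 and PS-MP 3, Orm2 and Orm3 part in PS-MP 3, and Hp and Hpx stay close to 0.

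Orm1, the main orosomucoid of mouse liver, varied little among the 6 libraries. Its values were 480.2, 584 and 485 FPKM in water replicates 1, 2 and 3 and 534, 556 and 543 FPKM in PS-MP replicates 1, 2 and 3. The PS-MP libraries lay inside the water range, and the log2 fold change was 0.08 (standard error 0.09, 95% interval -0.14 to 0.30, adjusted p = 0.76 by limma). That interval corresponds to 0.91 to 1.23 times the water level. The log2 fold change of Orm1 was 0.033 without water replicate 1 and 0.17 without water replicate 2.

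Orm2 had 11.6, 15.6 and 9.15 FPKM in water replicates 1, 2 and 3 and 13.7, 9.71 and 7.87 FPKM in PS-MP replicates 1, 2 and 3 (91 to 205 reads). PS-MP replicate 3 was lowest and water replicate 2 highest, and the groups overlapped (log2 fold change -0.21, standard error 0.23, 95% interval -0.74 to 0.32, adjusted p = 0.745 by limma). The value rested on these libraries, as it was -0.016 without water replicate 2 and -0.033 without PS-MP replicate 3. The neighbouring Orm3 had 3.49, 4.5 and 2.85 FPKM in water and 5.44, 5.19 and 12 FPKM in PS-MP. All 3 PS-MP values of Orm3 were above water, with PS-MP replicate 3 far above the rest, and the gene did not pass (log2 fold change 0.89, unadjusted p = 0.018, adjusted p = 0.274 by limma; 0.52 without PS-MP replicate 3). Orm2 was thus above Orm3 in 5 libraries and below it in PS-MP replicate 3, where the Orm2 to Orm3 ratio was 0.66 against 1.87 to 3.47 elsewhere.

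Lcn2 encodes lipocalin 2, which hepatocytes secrete in the acute phase and neutrophils store in granules. Its values were 0.85, 1.17 and 0.84 FPKM in water replicates 1, 2 and 3 and 1.25, 0.84 and 1.92 FPKM in PS-MP replicates 1, 2 and 3 (32 to 75 reads). PS-MP replicate 2 was the lowest of the 6 and PS-MP replicate 3 the highest, so the groups overlapped. The log2 fold change was 0.30 (standard error 0.21, 95% interval -0.19 to 0.79, adjusted p = 0.585 by limma), and it was 0.08 without PS-MP replicate 3 and 0.51 without PS-MP replicate 2. Of 12 neutrophil markers listed, Ltf, Mpo and Ly6g were at 0 in all 6 libraries, 1 passed the low-value filter, and the sum was 1.94 to 2.79 FPKM in water and 1.34 to 2.67 FPKM in PS-MP. Their part in the Lcn2 values was not tested.

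Hp and Hpx, the scavengers of haemoglobin and haem, had the smallest ratios of highest to lowest library among the 10 genes, 1.18 for Hp and 1.13 for Hpx. Hp was at 1643, 1626 and 1398 FPKM in water replicates 1, 2 and 3 and at 1446, 1623 and 1396 FPKM in PS-MP replicates 1, 2 and 3, and the groups overlapped throughout (log2 fold change -0.06, standard error 0.11, 95% interval -0.32 to 0.19, adjusted p = 0.847 by limma; -0.022 without water replicate 1 and -0.019 without PS-MP replicate 3). Hpx, on chromosome 7 at 105591613 to 105600137, was at 1353, 1297 and 1286 FPKM in water and at 1413, 1447 and 1404 FPKM in PS-MP. Each PS-MP value of Hpx was above each water value, by a small margin. Its log2 fold change was 0.12 (standard error 0.08, 95% interval -0.08 to 0.31, adjusted p = 0.599 by limma). The residual SD of Hpx was 0.03 on the log2 scale against a median of 0.13 over all genes tested, and limma draws such a low spread towards that of genes of like level, which widens the interval. For these abundant genes the upper ends of the intervals were 1.14 times (Hp) and 1.24 times (Hpx) the water level.

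Serpina3n had 173, 171 and 196 FPKM in water replicates 1, 2 and 3 and 192, 199 and 216 FPKM in PS-MP replicates 1, 2 and 3. The groups overlapped through water replicate 3 alone. The log2 fold change was 0.17 (standard error 0.08, 95% interval -0.02 to 0.36, unadjusted p = 0.0714, adjusted p = 0.432 by limma). Among the other genes of its cluster on chromosome 12, 4 of 10 passed the filter. Of those, 0 passed the test, against 0.489% of all genes tested (median log2 fold change -0.02, against 0.01). The most abundant was Serpina3k, at 6574 to 7060 FPKM in water and 6164 to 7241 FPKM in PS-MP. Serpina3m had a log2 fold change of 0.23 (adjusted p = 0.478 by limma; 0.15 without PS-MP replicate 3), Serpina3f had -0.09 (adjusted p = 0.905 by limma) and Serpina3g had -0.03 (adjusted p = 0.972 by limma). The annotated Serpina3m starts at the same base as Serpina3k (104338486) and spans it. How reads shared by these genes were counted is not given, so the Serpina3m value is uncertain.

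**Figure D4:**
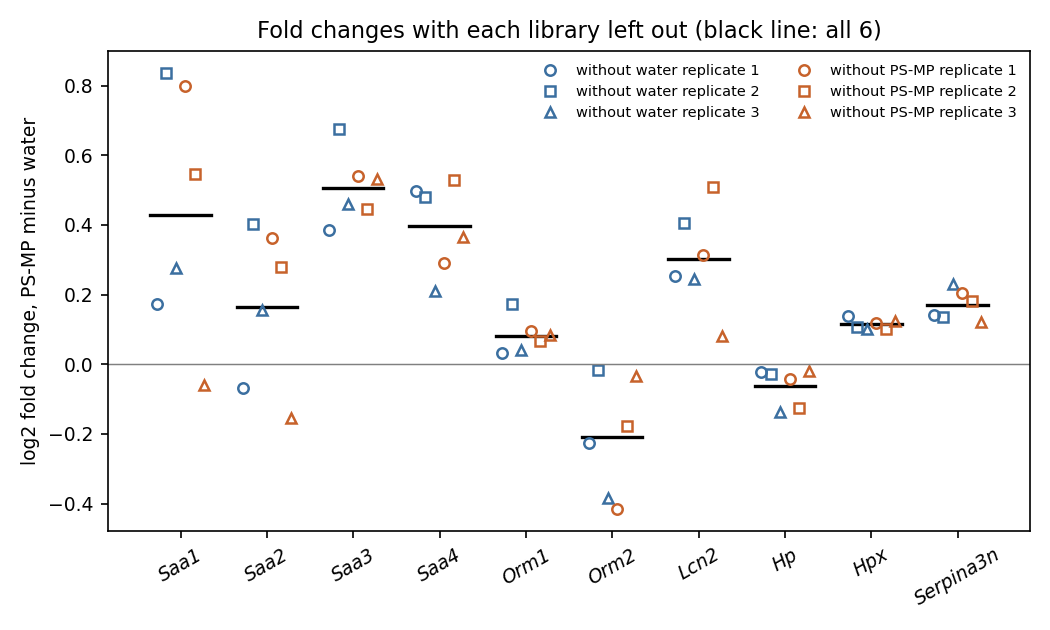
Log2 fold change of each gene, PS-MP minus water, with all 6 libraries (black line) and with each library left out in turn (blue symbols: a water library left out; orange: a PS-MP library left out). Saa1 goes from -0.06 to 0.84 and Saa2 from -0.15 to 0.40, while Saa3 stays between 0.38 and 0.67 and Hpx between 0.10 and 0.14.

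The 10 genes reached their highest value in different libraries. PS-MP replicate 3 held the highest value of 4 of them (Saa1, Saa2, Lcn2 and Serpina3n), against 26.6% of all genes tested, and the lowest value of 2 (Orm2 and Hp). Water replicate 1 held the lowest value of 4 (Saa1, Saa2, Saa3 and Orm1) and the highest of 1 (Hp). The share over all genes tested was computed only for the highest value in PS-MP replicate 3. The other counts thus have no comparison and describe these genes without setting them apart.

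Genes that carry the cytokine signal to hepatocytes are shown next. None of the 25 tested of 29 listed passed limma-trend in either direction, against 0.489% of all genes tested, and 6 positive and 3 negative fold changes had an unadjusted p under 0.05, against 13.1% of all genes tested in either direction. The list's median log2 fold change was 0.03, against 0.01 over all genes tested. Several ligands were scarce. Il6 was counted 0, 0 and 2 times in water and 2, 5 and 0 times in PS-MP, Tnf had at most 4 reads in any library, and Osm was at 0 in all 6; these and Lif were under the filter. Il1b, another ligand, was at 0.38, 0.56 and 1.41 FPKM in water and 1.04, 1.65 and 0.39 FPKM in PS-MP, with overlap. Il6, Tnf, Osm, Il1a and Il1b are named for their role, after their values were seen. So are Il6ra, Stat3, Cebpa, Cebpb, Cebpd, Il1r1, Il1rn and Hamp below.

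Socs3, a feedback inhibitor that STAT3 induces, was at 1.78, 1.2 and 1.81 FPKM in water replicates 1, 2 and 3 and 2.54, 4.90 and 2.88 FPKM in PS-MP replicates 1, 2 and 3. Its groups did not overlap, and it did not pass (log2 fold change 0.88, standard error 0.23, unadjusted p = 0.00481, adjusted p = 0.168 by limma). Without PS-MP replicate 3 its log2 fold change was 0.96. The interleukin 1 receptor gene Il1r1 was at 9.0, 18.3 and 15.7 FPKM in water and 27.0, 21.9 and 21.9 FPKM in PS-MP (log2 fold change 0.75, adjusted p = 0.237 by limma; 0.46 without water replicate 1, its lowest library). Il1rn, the secreted antagonist of that receptor, had the opposite sign, at 1.27, 0.79 and 0.96 FPKM against 0.68, 0.53 and 0.48 FPKM (log2 fold change -0.49, adjusted p = 0.211 by limma). None of these differences passed the adjusted test.

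The receptor gene Il6ra had a log2 fold change of 0.17 (adjusted p = 0.567 by limma; 0.069 without water replicate 1), and Stat3 itself was at 11.5 to 12.6 FPKM in water and 10.6 to 14.2 FPKM in PS-MP (log2 fold change 0.01; -0.01 with median-of-ratios scaling). Nr3c1, the glucocorticoid receptor that acts with these cytokines, was at 9.42 to 10.5 FPKM in water and 12.3 to 14.0 FPKM in PS-MP without overlap (log2 fold change 0.38, unadjusted p = 0.00142, adjusted p = 0.108 by limma). Nfkbia, the inhibitor and target of NF-kB, was at 23.1 to 27.4 FPKM in water and 16.2 to 19.5 FPKM in PS-MP (log2 fold change -0.44, unadjusted p = 0.00206, adjusted p = 0.121 by limma). The 3 C/EBP factors listed did not share a direction. Cebpb, a C/EBP factor of the acute phase, had -0.22 (adjusted p = 0.548 by limma; -0.074 without PS-MP replicate 3). Cebpa had 0.35, with overlap of the groups (unadjusted p = 0.0122, adjusted p = 0.237 by limma), and Cebpd had -0.12 (adjusted p = 0.757 by limma). Over the alternatives the smallest adjusted p was 0.0539 for Nr3c1 and 0.0781 for Nfkbia, both with limma-voom, and the largest were 0.339 and 0.38.

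**Figure D5:**
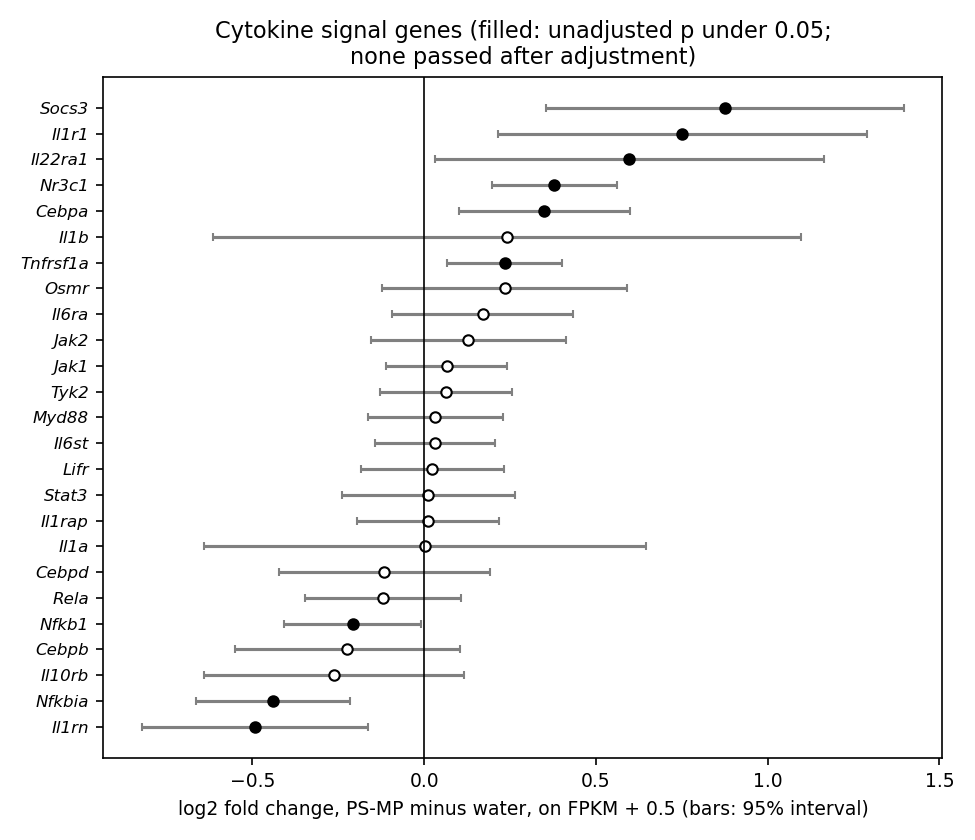
Log2 fold changes, PS-MP minus water, of the 25 tested cytokine signal genes, with 95% intervals from 3 libraries per group; filled points have an unadjusted p under 0.05. Socs3 and Il1r1 lie furthest above 0 and Il1rn and Nfkbia furthest below, and none passed after adjustment.

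Other positive acute phase proteins, those that the liver makes more of in inflammation, showed no shared direction. Of 30 listed, 28 were tested and 0 passed, with 5 positive and 2 negative at an unadjusted p under 0.05 (13.1% of all genes tested, in either direction), and 15 positive fold changes against 13 negative (median 0.00, against 0.01 over all genes tested). The members with the smallest p were Steap4, a metalloreductase, at 14.8 to 15.1 FPKM in water and 18.4 to 26.8 FPKM in PS-MP (log2 fold change 0.52, adjusted p = 0.15 by limma), Hamp2 (log2 fold change 1.0, adjusted p = 0.245 by limma, from 0.23 to 1.06 FPKM in water; 0.66 without water replicate 1, which had 2 reads) and the pantetheinase Vnn1 (-0.50, adjusted p = 0.246 by limma; -0.34 without PS-MP replicate 3 and -0.25 with water replicate 1 left out as well). Hamp, which encodes the iron hormone hepcidin, was at 214, 225 and 281 FPKM in water replicates 1, 2 and 3 and at 267, 405 and 682 FPKM in PS-MP replicates 1, 2 and 3. PS-MP replicate 1 lay within the water range, so the groups overlapped (log2 fold change 0.81, adjusted p = 0.309 by limma; 0.46 without PS-MP replicate 3).

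Negative acute phase proteins, whose synthesis drops in inflammation, gave 0 of 11 past the test and 0 at an unadjusted p under 0.05. Of all genes tested, 0.489% and 13.1% did so. Fold changes were negative for 7 and positive for 4, against 53.7% positive of all genes tested (median log2 fold change -0.09, against 0.01). For 2 of the 11, Ttr and Fetub, all 3 PS-MP values lay below water, against 8.12% of all genes tested. Serpina6, which encodes corticosteroid-binding globulin, had 0.25 (adjusted p = 0.442 by limma; 0.14 without water replicate 3), Igf1 had 0.25 (adjusted p = 0.445 by limma; 0.16 without PS-MP replicate 3) and Fetub, a cystatin-family plasma protein, had -0.13 (adjusted p = 0.464 by limma). Receptors and clearance genes of the acute phase proteins gave 0 of 14 tested, against 0.489% of all genes tested (median 0.00). Only 1 had an unadjusted p under 0.05, against 13.1%. That was Cd163, the macrophage receptor for haptoglobin bound to haemoglobin, at 5.06, 6.56 and 6.85 FPKM in water and 10.6, 8.61 and 6.53 FPKM in PS-MP, with overlap (log2 fold change 0.43, adjusted p = 0.357 by limma; 0.28 without PS-MP replicate 1). Slc22a17, a lipocalin 2 receptor, had 0.38 (adjusted p = 0.514 by limma; 0.10 without PS-MP replicate 3), and Tlr2, a receptor that serum amyloid A can engage, had -0.16 (adjusted p = 0.562 by limma).

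Likeness of pattern was measured as the root mean square distance between log2(FPKM + 0.5) profiles over the 6 libraries, each centred on its mean, among the 9244 tested genes outside the 10 that had a mean of at least 1 FPKM and a symbol not of a predicted gene model. Saa2 lay 0.30 from Saa1, nearer than each of these 9244 genes, of which Rab3a (0.31), Eif4e3 (0.35) and Ccdc151 (0.35) came next. For Saa2 the nearest were Eif4e3 (0.10), Ccdc151 (0.15) and Pcp4l1 (0.18), and 98 of the 9244 genes lay nearer to Saa2 than Saa1 did. Rab3a, a vesicle protein abundant in neurons, was at 0.86 to 1.27 FPKM in 5 libraries and at 3.58 FPKM in PS-MP replicate 3, where brain marker reads were also most numerous. Nearest to Orm2 were Slc16a13 (0.07), Zfp36 (0.12) and Tmem184b (0.14), and nearest to Lcn2 were Ces2c (0.04), Aldh1l1 (0.08) and Fam214a (0.09). With 6 libraries and 9244 genes, near neighbours are easily found, and these distances are descriptions.

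Markers of further cell types gave 0 calls, against 0.489% of all genes tested. Of 6 endothelial markers and 7 stellate cell and fibroblast markers, all were tested, with sums of 39.4 to 48.8 FPKM in water and 40.3 to 47.1 FPKM in PS-MP for the former and 23.0 to 37.5 FPKM in water and 27.6 to 31.9 FPKM in PS-MP for the latter. Among the latter, 3 fold changes were positive and 4 negative (median log2 fold change -0.09), and 1 gene had an unadjusted p under 0.05, against 13.1% of all genes tested. This was Acta2, the smooth muscle actin of activated stellate cells, named after its values were seen. Acta2 was at 1.41, 0.43 and 0.97 FPKM in water and 0.31, 0.2 and 0.21 FPKM in PS-MP (log2 fold change -0.90, unadjusted p = 0.00592, adjusted p = 0.181 by limma). These values stand on 47, 16 and 31 reads against 9, 7 and 7 reads, and water replicate 1 was highest. Of 8 adipocyte markers, 6 were tested and all 6 had negative fold changes, against 53.7% positive of all genes tested. Of the 6, 0 had an unadjusted p under 0.05, against 13.1%, and Lep was at 0 in all libraries. Water replicate 1 had the largest adipocyte sum, 37.9 FPKM, while water replicate 2, at 1.93 FPKM, was below PS-MP replicate 3, at 16.4 FPKM. All 6 tested brain markers of 10 were above water in all 3 PS-MP libraries, against 11.1% of all genes tested. Of these markers, 4 had an unadjusted p under 0.05, against 13.1%. Snap25 and Camk2a, with at most 3 reads in a water library, passed the filter only through the 3 PS-MP libraries. Their place above water was therefore set by the filter, and these counts are descriptions. Of the 4 untested markers, Slc17a7 and Mobp were also above water in all 3 PS-MP libraries, and Gfap and Stmn2 overlapped. The part of fat or brain transcripts in the values of the 10 genes was not tested, and leaving out both water replicate 1 and PS-MP replicate 3 gave log2 fold changes of 0.41 for Saa3, 0.47 for Saa4, 0.15 for Hpx and 0.09 for Serpina3n.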

How the data were processed

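RNA sequencing of mouse liver gave 6 libraries, 3 water and 3 PS-MP, grouped and numbered by their titles. The deposited values are FPKM per gene and library, as the authors computed them. CASAVA, FastQC, MultiQC, Trimmomatic 0.38, HISAT2 2.1.0, featureCounts 1.6.0 and DESeq2 1.22.1 were used, per the submitters' processing notes; these name GRCh38, whereas the identifiers are those of mouse GENCODE M21 on GRCm38. The sources used here do not give the strand setting. Each value was multiplied by merged exon length and by a library total. That total was first set by taking the smallest product above 0 as 1 read, and was then refined. The results were whole numbers of reads within 0.001 for 100% of genes above 0, and their sums gave the depth.

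Genes with at least 10 reads at the median library size (0.664 CPM) in at least 3 libraries were tested (13299) with limma-trend (limma 3.58.1, R 4.3.3) on log2(FPKM + 0.5), group as the only term, with Benjamini-Hochberg adjustment over all genes at 0.05. The procedure was also run on simulated counts, whose outcome is not given here. That simulation used the same spread setting for every gene and no outlying library, unlike these data. Counting intervals are exact Poisson 95% and cover counting error only. As every member entered the fit, no exact permutation test was run (3 against 3 cannot go below 0.1). The 10 genes, lists and tests were chosen with earlier results of these data known. Named genes were the 10 genes, calls or the 3 smallest p of each list, neighbouring copies, and the 3 nearest profiles of Saa1, Saa2, Orm2 and Lcn2. Promoters are RefSeq, GRCm38.p6.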

Additional observations from a re-analysis of the deposited data

How the results depend on the processing

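In 15 alternatives (pseudocounts 0.1 and 1, 2 other low-value rules, 2 scalings, limma-voom, the replicate block, each library left out, and, chosen after seeing the data, both water replicate 1 and PS-MP replicate 3 left out), 0 of the 10 genes and 0 genes of the 5 pathway lists passed. The number of all genes called was 65, and it was 0 with no low-value filter (2064 at an unadjusted p under 0.05), 133 with limma-voom, 0 without water replicate 3 (1641 at an unadjusted p under 0.05), 3 and 31 without water replicates 1 and 2, 36, 2 and 13 without PS-MP replicates 1, 2 and 3, and 2 without both doubted libraries. With the replicate block 23 genes were called, 0 of the 10 among them. Deviations of same-numbered libraries correlated at -0.04, 0.05 and -0.01, which gave no sign of pairing over all genes tested. With 3 libraries per group, this cannot exclude a pairing that acts on some genes.

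Some signs turned. With libraries left out singly, the log2 fold change ran from -0.059 to 0.84 for Saa1, -0.15 to 0.40 for Saa2, -0.10 to 0.10 for Stat3, -0.33 to 0.11 for Serpina3f, -0.27 to 0.16 for Serpina3g and -0.045 to 0.071 for Serpina3k. With both doubted libraries left out it was -0.31 for Saa1, -0.38 for Saa2, 0.023 for Hp, 0.016 for Cebpb, 0.24 for Serpina3f and 0.26 for Serpina3g. Stat3 had -0.01 with median-of-ratios and -0.021 with TMM scaling. The cause was not tested. For Saa3, Saa2 and Lcn2, at 15 to 99 reads per library, counting error limits what can be detected.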

Other observations

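Ratios between partner genes moved across libraries. Hp over Hpx was 1.21, 1.25 and 1.09 in water replicates 1, 2 and 3 and 1.02, 1.12 and 0.99 in PS-MP replicates 1, 2 and 3. Orm1 over Orm3 was 137.5, 129.6 and 170.2 in water and 98.2, 107.1 and 45.4 in PS-MP, so the PS-MP ratios all lay below those of water; this ratio was chosen after the values were seen and was not tested.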
